A study of Mus musculus with 112 samples.

Results

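Cigarette smoke (CS) exposure of Nrf2-/- sires was examined for its association with DNA methylation (DNAme) in the brains of their sons. The members were chosen by their labels: 8 F1 brain libraries of CS-exposed Nrf2-/- sires (the smoked group) and 8 of unexposed Nrf2-/- sires (the control group), 16 of the 112 libraries of the series. Nrf2-/- sires carry no working copy of Nfe2l2, which encodes the transcription factor NRF2, and stood on a C57BL/6J background. Exposed sires breathed CS over 60 days before mating, and control sires did not. All mothers were CAST/EiJ, so that every son in this comparison was a hybrid with 1 targeted Nrf2 allele by breeding, although the labels carry the null genotype of the sire. The sons were 14 to 17 weeks old males, and the tissue was prefrontal cortex from the left hemisphere. Sons of control and smoked WT sires (8 libraries each) served to set methylation levels and for a comparison of the smoke change between genotypes. One control WT brain sample carries the null strain label against its title, was grouped by title and has no identified column, so a library of the other genotype may lie in the group that sets every deviation and level class. Reads were not assigned to a parental allele, so an autosomal percent can mix the CAST/EiJ and C57BL/6J alleles. Sons receive chromosome X from the mother and chromosome Y from the sire, so percents there hold no such mix.

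In mammals, most CpGs away from regulatory sequence carry methyl groups, whereas dense CpG islands at transcription starts are usually free of them. Intermediate levels arise at partly methylated regulatory sequence, at sites methylated in some cell types of a tissue, and at imprinting control regions, where DNAme on the allele of 1 parent silences or permits nearby genes. NRF2 drives antioxidant and detoxification genes, and CS is a source of oxidants.

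The assay was reduced representation bisulfite sequencing (RRBS). Genomic DNA was digested separately with MspI, which cuts at CCGG, and with a TaqI enzyme, which cuts at TCGA. The digests of each animal were pooled, converted with bisulfite and read over 50 cycles from the fragment ends. Each value was the percent of reads that kept an unconverted base at a cytosine. A CpG can hold 2 positions, 1 on each strand. The tables gave no read numbers, so the depth behind each percent is unknown. The number of positions with a value ranged from 1343865 to 1626895 in the control group and from 1356432 to 1711088 in the smoked group. Percents hold no transcript level, so the tissue was not checked against markers of its cell types, and in bulk tissue a changed mix of cells cannot be told apart from a change within cells.

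Column headings gave facility numbers that match no sample label, so libraries are named by their column order in the table of their group. Numbers 1 to 16 were cut here into 4 runs of 4 consecutive numbers, which the headings do not name. Each run held 2 smoked libraries at its lower numbers and 2 control libraries at its higher numbers. CS and position within a run therefore cannot be told apart, and exchange of labels within runs does not remove this limit. Tests with labels exchanged only within runs (within-run tests) are given where they change a call. Some libraries stood apart. The 4 libraries with numbers 13 to 16 (control columns 3 and 4, smoked columns 2 and 3) had higher percents than the others at nearly unmethylated cytosines and lower percents at nearly fully methylated ones. Smoked columns 2, 4, 5 and 6 lay below every other library of the comparison at cytosines near MspI sites. A value was present at 86.0%, 82.3% and 87.4% of the scoreable MspI-only cytosines in smoked columns 4, 5 and 6 but at 96.5% in smoked column 2. Among the other libraries of the comparison, smoked column 3 (88.6%) and control column 4 (89.2%) were also under 90%. The share of TaqI-only cytosines with a value was 95.5% ± 2.59 (SD, n = 8) in controls and 95.4% ± 2.43 (n = 8) in the smoked group. Among the 120 pairs of libraries, between 1.19% and 2.18% of percents that lay between 10 and 90 in both were identical, and no library appeared to be deposited more than once.

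Results are given by the enzyme whose site lay nearby, so a few of the regions named later are shown first, to show where those sites fall, from the mm10 (GRCm38) reference, forward strand, with 1 base added on each side of the region. Capitals mark MspI (CCGG) and TaqI (TCGA) sites. The first 3 sequences are regions with a lower percent in the smoked group whose cytosines lay near MspI sites only, and the last 4 are regions with TaqI sites only, of which D130079A08Rik was lower and the others higher in the smoked group. Each begins at a cut site, and all but the Parp11 region also end at a site of the same enzyme.
Zfp169, chr13:48490385-48490594: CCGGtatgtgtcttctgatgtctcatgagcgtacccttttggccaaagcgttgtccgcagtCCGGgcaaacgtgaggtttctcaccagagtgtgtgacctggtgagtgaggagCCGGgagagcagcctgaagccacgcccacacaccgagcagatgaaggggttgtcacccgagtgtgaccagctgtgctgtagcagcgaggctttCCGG
Nrcam, chr12:44362975-44363089: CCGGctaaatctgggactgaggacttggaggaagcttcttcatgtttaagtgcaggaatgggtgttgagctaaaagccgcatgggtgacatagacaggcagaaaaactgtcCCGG
Wfs1, chr5:37001271-37001350: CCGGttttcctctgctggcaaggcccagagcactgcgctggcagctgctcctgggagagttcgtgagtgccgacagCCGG
D130079A08Rik, chr14:104280208-104280291: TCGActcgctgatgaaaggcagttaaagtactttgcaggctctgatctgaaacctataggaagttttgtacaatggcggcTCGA
Asb4, chr6:5381510-5381607: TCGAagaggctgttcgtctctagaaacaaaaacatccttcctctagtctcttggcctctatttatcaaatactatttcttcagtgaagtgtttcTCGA
Gm20618, chr6:6696421-6696485: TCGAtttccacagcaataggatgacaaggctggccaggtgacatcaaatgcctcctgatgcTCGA
Parp11, chr6:127453306-127453407: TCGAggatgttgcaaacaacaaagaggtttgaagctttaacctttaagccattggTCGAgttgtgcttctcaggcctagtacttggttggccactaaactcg

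Brain DNAme was lower on average in sons of CS-exposed Nrf2-/- sires. Over the 1390836 scoreable cytosines (a value in at least 4 libraries of each of the 4 F1 brain groups), the library mean in controls was lowest at 35.3%, had a median of 35.97% and was highest at 36.7%. In the smoked group the lowest library was at 31.7%, the median at 34.7% and the highest at 36.2%. Smoked columns 2, 4, 5 and 6 were below all 8 controls, and the other 4 smoked libraries lay within the control range. The group means differed by -1.68 percentage points (exact two-sided permutation test over all 12870 assignments of 8 and 8 libraries, p = 0.0465). This call held in 5 of 16 tests that left out 1 library (exact p from 0.0208 to 0.0848) and was lost without facility numbers 13 to 16 (-1.63 points, exact p = 0.0801). A second measure takes for each library its mean deviation from the control WT brain mean at the same cytosines, so that libraries covering different cytosines are compared on the same base. On this measure controls averaged 0.435 ± 0.426 points (SD, n = 8) and the smoked group -0.510 ± 0.773 (n = 8), a difference of -0.945 points (exact p = 0.00746). Without smoked columns 2, 4, 5 and 6, which were picked on these same data, the difference was -0.326 points in the mean deviation and 0.0700 points in the plain mean, and no test was made of either. Leaving out the 5 libraries with a value at under 90% of MspI-only cytosines gave -0.830 points in the mean deviation (7 controls against 4 smoked, exact p = 0.0970) and -1.04 points in the plain mean (exact p = 0.261).

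The spread of the plain library means was also larger in the smoked group. Their mean distance from the group median was 1.75 points, against 0.522 points in controls, a difference of 1.22 points (exact permutation test, p = 1.6e-04). It was 0.924, 0.962 and 1.07 points and no longer passed without smoked column 2, 4 or 5 (exact p = 0.0558, 0.0550 and 0.0533). In the mean deviation, the difference in spread was 0.260 points and did not pass (exact p = 0.167). At cytosines of 10 to 75% it was 2.90 points near MspI sites only (exact p = 0.00326). Near TaqI sites only it was -0.125 points (exact p = 0.763).

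The loss passed the test at intermediate methylation levels. Each cytosine was placed in a class by its mean in control WT brain, which is not part of the contrast. At 25 to 50% the smoked group stood at 35.7% ± 3.56 (SD, n = 8) against 40.5% ± 2.47 in controls, a change in mean deviation of -4.75 points (exact p = 0.00932, adjusted p = 0.0189 over 49 classes). At 10 to 25% the change was -3.06 points (exact p = 0.00824, adjusted p = 0.0189), from 18.7% ± 1.70 to 15.6% ± 2.22. At 50 to 75% it was -3.30 points (exact p = 0.0107, adjusted p = 0.0189), from 65.6% ± 1.59 to 62.3% ± 3.04. These 3 classes passed the test also when any 1 library was left out. Over all cytosines at 10 to 75% the change was -3.71 points (exact p = 0.0101). It was -3.07 points and no longer passed without the 5 libraries under 90% (exact p = 0.115), and -1.27 points, with no test, without smoked columns 2, 4, 5 and 6. In the classes outside 10 to 75% the values were -0.0921 points under 10% (exact p = 0.602), -1.26 points at 75 to 90% (exact p = 0.133) and -0.331 points at 90% and above (exact p = 0.570). None passed. In within-run tests these 3 classes passed too (exact p = 0.00772, 0.00154 and 0.00463, unadjusted), and every run had a negative value in each.

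The 10 to 75% classes held 3.86%, 6.13% and 9.27% of scoreable cytosines and carried 11.7%, 29.1% and 31.5% of the summed change. Cytosines under 10%, which were 51.4% of all, carried 4.46% of it. At 25 to 50%, 45.6% of cytosines were lower by more than 5 points in the smoked group mean and 10.2% higher by as much. Across all levels these shares were 12.6% and 5.10%, and the median change over all scoreable cytosines was 0. In 5-point bins of control WT level, the change deepened from -0.0437 points at 0 to 5% to -4.95 points at 30 to 35% and shrank to -0.177 points at 95 to 100%. This profile mixes cytosines near different enzyme sites. Near MspI sites only, the change was deepest at 55 to 60% (-9.13 points). Near TaqI sites only, it was deepest at 35 to 40% (-1.25 points). A test within each library of the class against all other cytosines gave -4.04 points for 25 to 50% (exact p = 0.00917), -2.20 for 10 to 25% (exact p = 0.0138) and -2.59 for 50 to 75% (exact p = 0.0123). After adjustment over 16 classes all 3 stood at p = 0.0738 and did not pass. At unadjusted p under 0.05, 7 of 16 classes differed from the rest, and 13 in within-run tests.

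**Figure D1:**
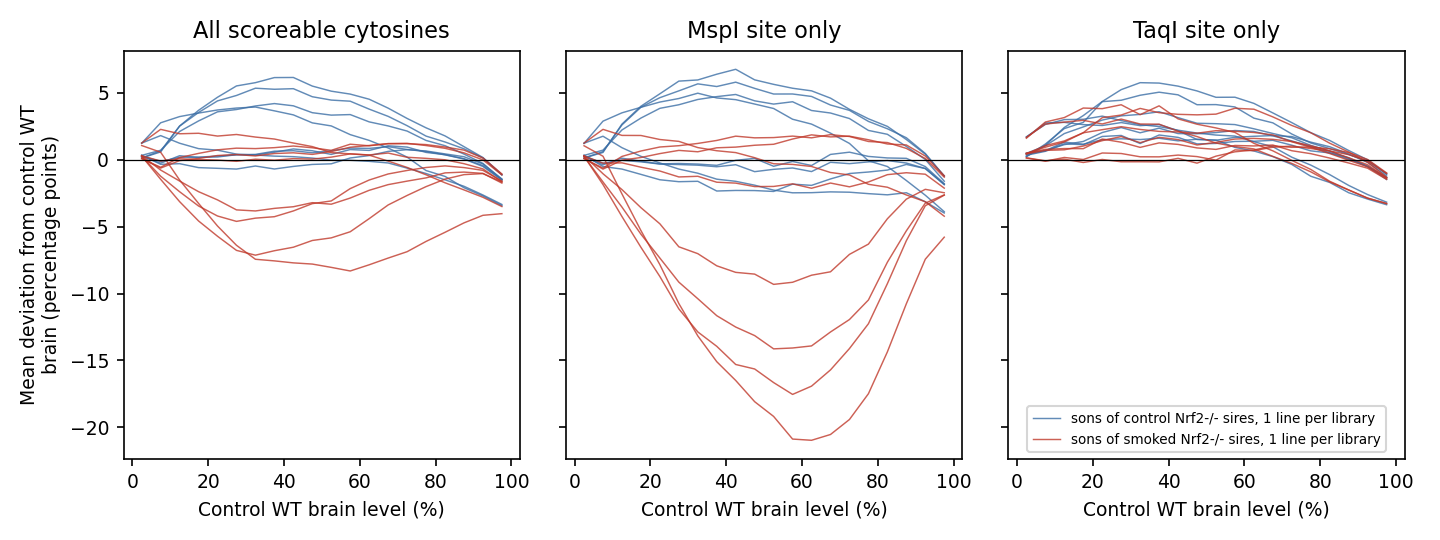
Mean deviation of each library from control WT brain, in percentage points, against the control WT level in 5-point bins, for all scoreable cytosines and for cytosines near MspI or TaqI sites only (1 line per library, 8 control and 8 smoked Nrf2-/-). The 4 lines that fall deepest near MspI sites are smoked columns 2, 4, 5 and 6, and column 2 reaches -20.97 points at 60 to 65%, whereas near TaqI sites it lies at 1.23 points in that bin.

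The loss passed the test in exons, introns and sequence near genes. Within 1 kb of a transcription start, where control libraries averaged 4.95%, the mean deviation changed by -0.213 points (exact p = 0.296). Coding exons changed by -1.72 points (exact p = 0.0146, adjusted p = 0.0217), UTRs and non-coding exons by -1.84 points (adjusted p = 0.0226), introns by -1.75 points (adjusted p = 0.0245) and intergenic cytosines within 50 kb of a gene by -1.58 points (adjusted p = 0.0256), all by the exact permutation test. Intergenic cytosines farther away had -1.09 points (exact p = 0.0788). In within-run tests the promoter class (exact p = 0.00463; -0.266 to -0.162 points in the 4 runs) and far intergenic cytosines (exact p = 0.00154) also passed. Restricted to 10 to 75%, the promoter class stood at -3.29 points (exact p = 0.00870), between the -4.56 points of coding exons (exact p = 0.0104) and the -2.49 points of far intergenic cytosines (exact p = 0.00109). Promoter cytosines were 46.4% of all scoreable cytosines but 11.3% of those at 10 to 75%, and introns were 22.5% and 41.1%. No annotation class differed from the other cytosines after adjustment (lowest adjusted p = 0.0912), whereas in within-run tests, unadjusted, all but far intergenic cytosines did (exact p = 0.00154 or 0.00463).

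By CpG density, the densest sequence had the smallest change. With 15 CpGs or more in 200 bp, where control DNAme was 2.99%, the change was -0.124 points (exact p = 0.538). It was -0.993 points at 9 to 14 CpGs (adjusted p = 0.0189), -1.99 points at 5 to 8 CpGs (adjusted p = 0.0192) and -1.47 points at 1 to 4 CpGs (adjusted p = 0.0586), by the exact permutation test with adjustment over the 49 classes. In within-run tests all 4 classes passed (highest exact p = 0.0123). Within a level the order of the densities varied: the densest class stood at -1.83 and the sparsest at -3.57 points at 10 to 25%, at -3.85 and -4.32 points at 25 to 50%, and at -5.32 and -2.41 points at 50 to 75%. Near MspI sites only, at 10 to 75%, they stood at -3.45 and -7.99 points.

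The loss was spread over the chromosomes. All 19 autosomes were lower, from -1.06 points on chromosome 5 to -0.807 points on chromosome 6, and all passed the exact test (highest adjusted p = 0.0189). Chromosome X, which sons receive from the unexposed mother, changed by -0.481 points (adjusted p = 0.0247). Chromosome Y, with 1600 scoreable cytosines, changed by -0.413 points (exact p = 0.425). Forward and reverse strands gave -0.941 and -0.948 points. Masked repeats stood at -0.758 points (exact p = 0.130, within runs 0.00463) and other sequence at -0.965 points (exact p = 0.00777). Cytosines with a value in all 32 brain libraries changed by -0.612 points (exact p = 0.00295), and those with a value in fewer libraries by -1.60 to -1.70 points.

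**Figure D2:**
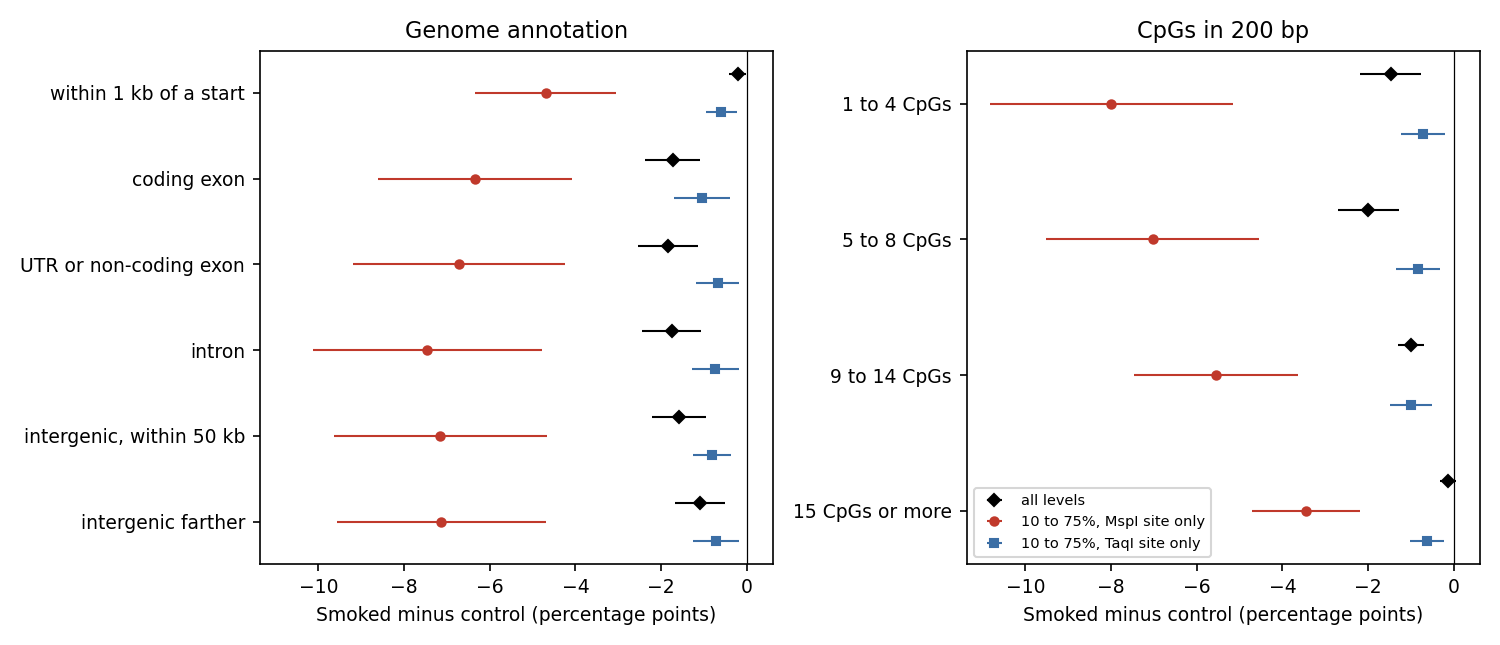
Smoked minus control Nrf2-/- change in mean deviation (percentage points; bars are 1 SE from 8 libraries a group) by genome annotation and by CpGs in 200 bp, for all levels and for cytosines at 10 to 75% near MspI or TaqI sites only. MspI-only values lie between -7.45 and -4.69 points in the 6 annotation classes and TaqI-only values between -1.05 and -0.592.

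The loss passed the test near MspI sites, near both sites and near neither site, and did not pass near TaqI sites alone. Cytosines with an MspI site and no TaqI site within 50 bases (MspI only) made up 59.8% of scoreable cytosines, and those with a TaqI site alone (TaqI only) 26.4%. Over all levels, MspI-only cytosines changed by -1.33 points (exact p = 0.0110) and TaqI-only cytosines by -0.274 points (exact p = 0.481). Cytosines with both sites stood at -0.649 points (exact p = 0.00264), and the 16060 with neither site within 50 bases at -0.833 points (exact p = 0.0247, adjusted p = 0.0310). Reads of 50 cycles from a site in the reference would not reach the latter, so the enzyme behind their values is not known. At 10 to 75%, 127494 MspI-only cytosines changed by -6.79 points (exact p = 0.0135) and 110707 TaqI-only cytosines by -0.757 points (exact p = 0.151). Cytosines with both sites changed by -3.25 points there and those with neither by -2.79 points (exact p = 0.00761 for each). Without smoked columns 2, 4, 5 and 6 the MspI-only and TaqI-only changes were nearly equal, at -1.36 and -1.18 points, with no test. Without the 5 libraries under 90% they were -4.64 (exact p = 0.127) and -1.16 points (exact p = 0.106), and neither passed. MspI-only cytosines at these levels carried 59.2% of the summed change and TaqI-only cytosines 6.17%. By level class, MspI-only cytosines changed by -3.87 points at 10 to 25%, -7.80 at 25 to 50% and -8.52 at 50 to 75%. At 75 to 90% they changed by -4.60 points (exact p = 0.0260, adjusted p = 0.0623 over classes of enzyme and level). TaqI-only cytosines changed most at 25 to 50%, by -1.13 points (exact p = 0.123).

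Library by library, the MspI-only deviation at 10 to 75% in controls was lowest at -1.61 points, had a median of 1.76 and was highest at 4.98. In the smoked group the lowest was -13.7 points, the median -3.98 and the highest 1.29. Smoked columns 2, 4, 5 and 6 stood at -13.7, -12.0, -9.87 and -6.57 points, and the other 4 smoked libraries lay between -1.40 and 1.29, within the control range. At TaqI-only cytosines the same columns 2, 4, 5 and 6 stood at 1.90, 1.42, 3.22 and 0.975 points. There the controls ranged from 1.13 to 4.20 points and the smoked group from 0.447 to 3.22, and 3 smoked libraries lay below the lowest control. Column 6 was 1 of these 3. At cytosines near neither site, columns 2, 4, 5 and 6 stood at -4.57, -3.01, -0.812 and -2.06 points, below all 8 controls (0.00861 to 4.42). Smoked column 1, at -0.00805 points, also lay just below the lowest control there.

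The MspI-only minus TaqI-only difference within each library fell by 6.04 points in the smoked group (exact p = 0.0356). After adjustment over 8 such differences (6 level classes, 10 to 75% and shared windows), this exact p was 0.0536, and the difference did not pass. With smoke labels exchanged only within runs of facility numbers, p was 0.0201 over 1296 relabellings, and it was at or below 0.0278 for 7 of the 8 differences, unadjusted. By run the difference was -10.9, -4.95, -0.343 and -7.95 points for facility numbers in ascending order. In the run of numbers 9 to 12, MspI-only and TaqI-only cytosines changed alike, by -3.66 and -3.31 points. In the 2912 windows of 1 kb that held both kinds of cytosine at 10 to 75%, 8935 MspI-only cytosines changed by -5.73 points and 6580 TaqI-only cytosines by -0.739 points, a difference of -4.99 points (exact p = 0.0420, adjusted p = 0.0536). By annotation class, MspI-only cytosines passed the exact test in 6 of 6 classes (unadjusted p from 0.00979 to 0.0183) and TaqI-only cytosines in 0 of 6 (unadjusted p from 0.0923 to 0.203). The difference between enzymes was not tested by annotation class.

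On 20 chromosomes, MspI-only cytosines at 10 to 75% changed by -7.43 to -5.59 points. On 21 chromosomes, TaqI-only cytosines changed by -0.950 to -0.122 points. How a library was digested and which fragments were recovered was not tested as a part of the difference, since the tables give neither reads nor fragments. The share of MspI-only cytosines with a value, the nearest measure, was 95.9% ± 3.18 in controls and 91.3% ± 5.91 in the smoked group (difference -4.53 points, exact p = 0.0735).

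**Figure D3:**
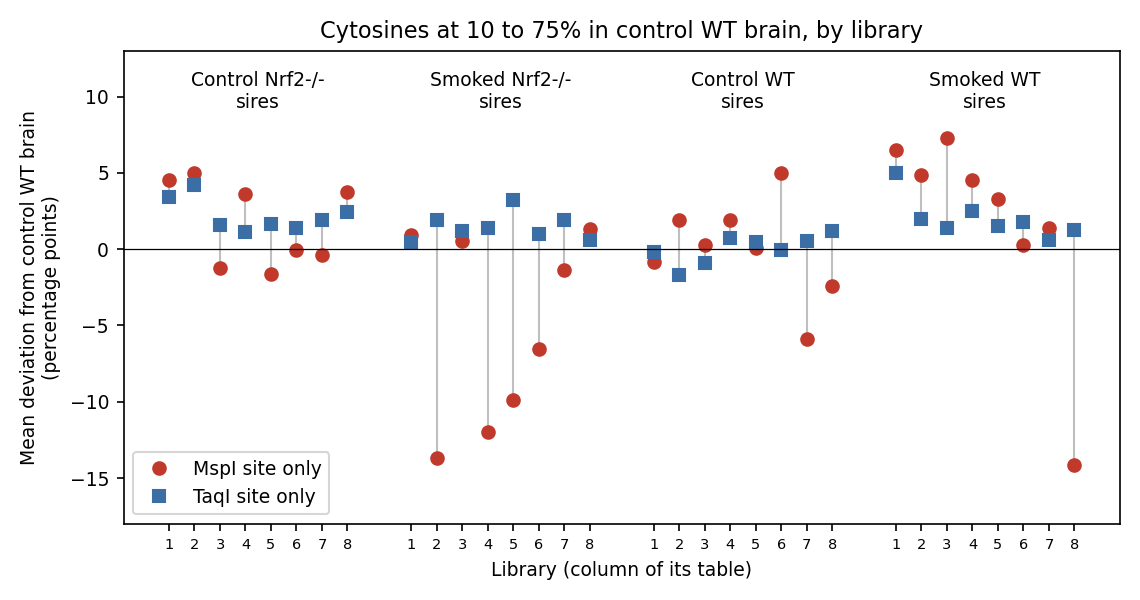
Mean deviation from control WT brain (percentage points) at 10 to 75% cytosines, for MspI-only (circles) and TaqI-only (squares) cytosines of each of the 32 F1 brain libraries, with a line joining the values of a library. Smoked Nrf2-/- columns 2, 4, 5 and 6 reach -13.7 to -6.57 points near MspI sites only, as do smoked WT column 8 (-14.2) and, less far, control WT column 7 (-5.88).

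Values were also taken by position in the read. These sets were formed by strand and distance from a read start at the end of either enzyme alone. They differ from the MspI-only and TaqI-only cytosines above. Near MspI sites, the CpG of the cut site itself (0 bases from the read start) changed by -8.20 points at 10 to 75% (exact p = 0.0145). Cytosines 1 to 49 bases into the read, in bins of up to 10 bases, changed by -5.52 to -5.12 points (exact p from 0.0124 to 0.0138). The difference between positions was not tested. Near TaqI sites the values were -0.751 points at the cut site (exact p = 0.157) and -0.861 to -0.663 points farther in, none of which passed.

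**Figure D4:**
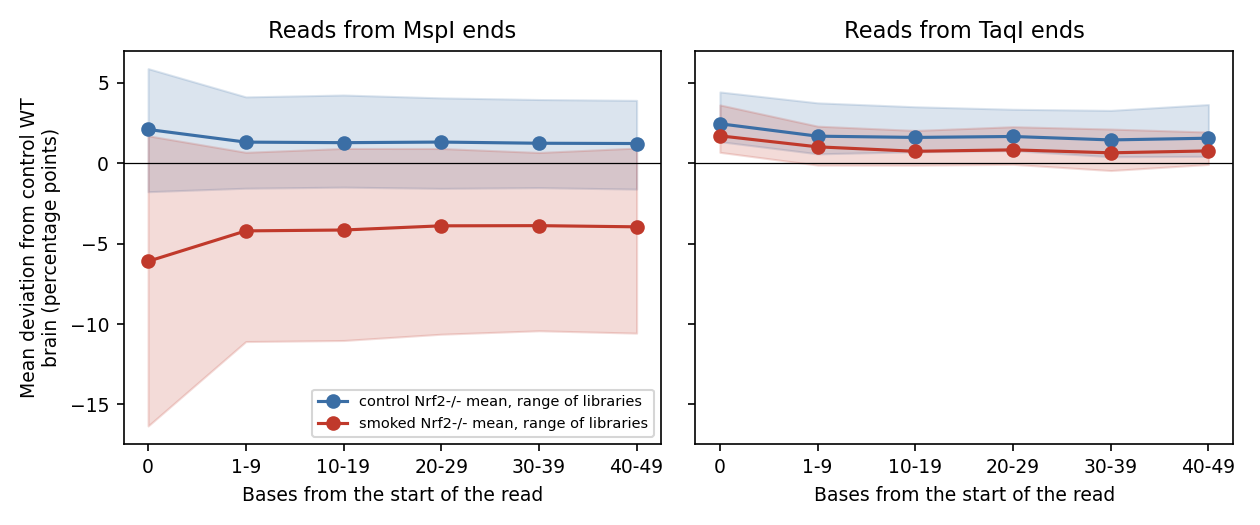
Mean deviation from control WT brain (percentage points) at 10 to 75% cytosines against the distance from the start of the read (bases). Cytosines lie within 50 bases of a read start at an MspI end and not a TaqI end, or the reverse. Points are group means and bands the range of 8 libraries. At MspI ends the smoked mean lies at -6.10 points at the cut site and at -4.21 to -3.88 points farther in, and the lowest library reaches -16.3.

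Regions were formed from scoreable cytosines at most 100 bp apart (at least 3 cytosines, over 50 bp), which gave 80920 regions with a median of 6 cytosines. Regions whose mean changed by more than 5 points, with at least 33.3% of their cytosines doing so, were counted as differentially methylated regions (DMRs). This is a rule of size that uses group means alone. By it, 12187 regions were lower in the smoked group (15.1% of all regions) and 760 higher (0.939%), 12947 (16%) in either direction. Without smoked columns 2, 4, 5 and 6 there were 5604 lower and 2813 higher DMRs. Of regions at 25 to 50% in control WT brain, 50.6% were lower DMRs, against 0.326% under 10%, 13.8% at 75 to 90% and 2.64% at 90% and above. Among the lower DMRs, 43.1% lay in introns and 26.4% intergenic within 50 kb of a gene, which hold 29.5% and 20.7% of all regions. Only 8.05% of them lay within 1 kb of a transcription start, against 30.2% of all regions. On the autosomes, lower DMRs made up 13.3% to 17.2% of the regions of a chromosome and higher DMRs 0.545% to 1.46%.

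Split by enzyme, 24.04% of the 38291 MspI-only regions were lower DMRs and 0.627% higher. Of the 18618 TaqI-only regions, 2.76% were lower and 1.87% higher. At 10 to 75% these shares were 58.3% and 0.957% of MspI-only regions and 7.11% and 3.58% of TaqI-only regions. With regions formed anew from 1 kind of cytosine, 20.2% of MspI-only and 2.71% of TaqI-only regions were lower DMRs. Higher DMRs were 0.534% and 1.8% of these, and DMRs in either direction 20.7% and 4.51%.

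With the replicate error included, 1 of 80920 regions was called (0.00124%; limma on all 32 brain libraries, adjusted p under 0.05). At unadjusted p under 0.05, 6937 regions were lower (8.57%) and 827 higher (1.02%). Subtracting from each library its mean deviation turned this split to 4620 lower and 9116 higher, since it moved the median change of all regions from -0.394 to 0.545 points.

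The region that passed lay in a coding exon of Zfp169, a KRAB zinc finger gene. Its 13 MspI-only cytosines had percents in controls from 79.7 over a median of 82.5 to 86.8, and in the smoked group from 66.4 over 73.8 to 77.7. The groups did not overlap. The change was -9.69 points (SE 1.48, limma adjusted p = 0.0334), and it passed in 8 of 16 fits that left out 1 library. It did not pass with array weights, on the logit scale or without facility numbers 13 to 16. No region passed without control column 1, 2, 6, 7 or 8 or smoked column 2, 4 or 6. Control and smoked WT brains stood at 81.0% and 82.8%.

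The other 11 falls that were named by rank of unadjusted p did not pass (limma adjusted p from 0.112 to 0.135). With the run of facility numbers as a term, the region of D130079A08Rik passed (limma adjusted p = 0.0407). They describe the most uniform falls, chosen on this contrast. Of all 12 falls, 10 were MspI only, 1 was TaqI only and 1 mixed, and all lay outside masked repeats. In a UTR of Npbwr1, a receptor of neuropeptides B and W, at chr1:5916135-5916333, controls ranged from 59.4% over 66.2 to 73.5 and the smoked group from 30.8% over 47.5 to 58.6 (-19.6 points). In an intron of Nrcam, which encodes a neuronal cell adhesion molecule, 8 controls ranged from 83.3% to 92.2% and the 6 smoked libraries with a value from 72.9% to 80.5% (-10.3 points). In both regions the groups did not overlap. This was so in 5 of the 12 named falls and in 2 of the 8 named rises. These regions were ranked on this same contrast, which favours such separation. The share of all regions without overlap was not counted.

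At 12067 bases from the start of Wfs1, which encodes an endoplasmic reticulum membrane protein, controls ranged from 49.2% over 61.8 to 70.3 and the smoked group from 15% over 36.4 to 56.7 (-25.2 points). Smoked columns 2, 4, 5 and 6 had the 4 lowest values there, 25.5, 30.2, 23.6 and 15. An intron of Zfp423, a zinc finger transcription factor gene of neural development, stood at 73.9% ± 9.63 (n = 8) in controls and 52.7% ± 8.13 (n = 7) in the smoked group. An intron of Camk2g, a subunit gene of a calcium-dependent kinase, was close to full DNAme in controls (96.7% ± 1.46, n = 8) and stood at 90.3% ± 3.22 (n = 8). The others were near or in Kank4, Pex3, Cgnl1, Ppp2r1b and Muc2, with changes from -32.2 points (an intron of Ppp2r1b, a phosphatase scaffold gene) to -10.1 points (near Pex3, a peroxisome assembly gene).

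One named fall was TaqI only. At an intergenic region 179026 bases from the start of D130079A08Rik, controls ranged from 65.4% over 69.1 to 70.9 and the smoked group from 59.3% over 62.6 to 65.6 (-6.03 points, SE 1.07, limma adjusted p = 0.112, and 0.0407 with the run as a term). Smoked columns 2, 4, 5 and 6 stood at 63.1, 61.3, 62.2 and 65.6, the other 4 between 59.3 and 64.7. A single smoked value lay above the lowest control. The fit of TaqI-only cytosines alone called 3 regions, 2 higher and 1 lower, and with the run of facility numbers as a term it called 1, which was lower.

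The 8 named rises ranged from 6.12 to 15.8 points, and none passed (limma adjusted p from 0.112 to 0.264). With 1 library left out, the Asb4 and Gm20618 regions each passed in 2 of 16 fits and the 1700006H21Rik region in 1. Limma called 2 higher regions without control column 5 and 2 without smoked column 7. Of the 8 named rises, 7 were TaqI only, 1 was MspI only, and 5 lay on chromosome 6. Of all 760 higher DMRs, 48 lay on chromosome 6. They were 1.25% of its regions, within the range of 0.545% to 1.46% over the autosomes. At 1780 bases from the start of Asb4, an ankyrin repeat and SOCS box gene, controls ranged from 58.4% over 60.8 to 77.1 and the smoked group from 63.4% over 76.9 to 80.5 (12.97 points, SE 2.34). Control column 5 (77.1%) stood with the smoked libraries and smoked column 7 (63.4%) with the controls. At 11616 bases from the start of Gm20618 the smoked group was at 29.8% ± 7.62 (n = 8) and controls at 14.05% ± 7.43 (n = 8), and the same 2 libraries changed sides: control column 5 at 29.7% and smoked column 7 at 13.2%. Another region of chromosome 6, near C530044C16Rik, again had control column 5 (80.5%) high and smoked column 7 (60.7%) low, together with smoked column 5 (61.0%). Control and smoked WT brains stood at 81.4% and 81.1% in the Asb4 region and at 29.97% and 29.7% in the Gm20618 region. At Asb4 both WT means lay above all 8 smoked Nrf2-/- libraries (mean 75.5%), and at Gm20618 they lay beside the smoked Nrf2-/- mean of 29.8%.

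The promoter region of Parp11, a mono-ADP-ribosyltransferase gene, ranged in controls from 21.5% over 22.6 to 26.4 and in the smoked group from 27.2% over 30.5 to 36.7, with no overlap (7.57 points, SE 1.80, limma adjusted p = 0.246). An intron of Itpr1, an inositol trisphosphate receptor gene, was the MspI-only rise, from 65.9% ± 0.979 to 72.0% ± 4.24 (n = 8 each), also with no overlap. Its 2 highest smoked values, 77.8 and 79.5, were in columns 4 and 6, which were low at MspI-only cytosines elsewhere.

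**Figure D5:**
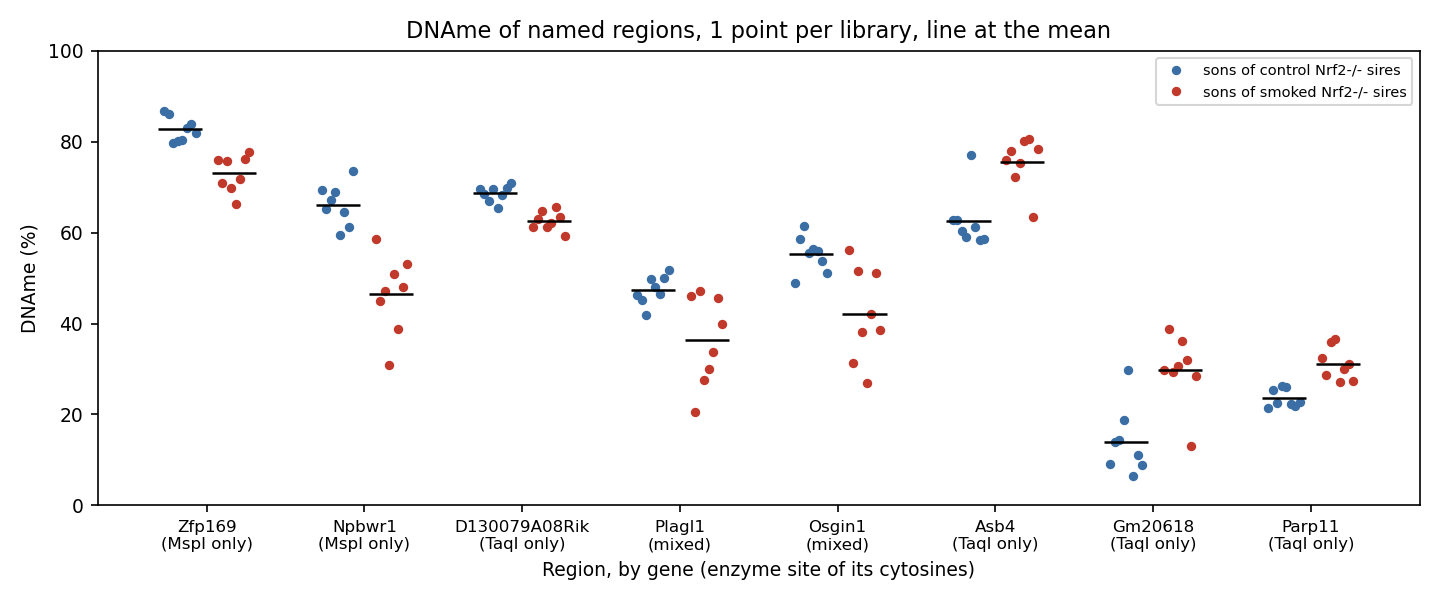
DNAme (%) of 8 regions in each library of the control and smoked Nrf2-/- groups (1 point per library, line at the mean), with the enzyme site of the cytosines. Zfp169 and Npbwr1 separate the groups, the Plagl1 groups overlap, with smoked libraries from 20.7% to 47.1%, and Asb4 and Gm20618 each have 1 library of each group at the level of the other group.

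Gene lists were read as counts of lower DMRs and medians of the limma change, against 15.1% and -0.394 points over all regions. A region counted for a list if it lay in a listed gene or within 1 kb of its start. The rise near Asb4, which lay farther from the start and outside the gene, is in none of these counts. None of the regions in these lists passed limma. At unadjusted p under 0.05, where 8.57% of all regions were lower, 10 of 126 regions of neuron markers, 2 of 42 of astrocyte markers, 6 of 47 of oligodendrocyte markers, 5 of 153 of Hox genes, 3 of 60 of NRF2 target genes, 6 of 66 of the DNA methylation machinery, 26 of 267 of glutamate and GABA receptors, 7 of 37 of microglia markers and 6 of 27 of endothelium markers were lower. Among 82 regions of 24 imprinted genes, 26 were lower DMRs and 0 higher, with a median of -1.39 points, and 17 were lower at unadjusted p under 0.05. Of 60 regions of 21 NRF2 target genes, 5 were lower DMRs (8.33%), with a median of -0.183 points. In 153 regions of 39 Hox genes 1 was lower and 1 higher, and in 66 regions of 14 genes of the DNA methylation machinery 9 were lower (13.6%). For 267 regions of 36 glutamate and GABA receptor genes 43 were lower (16.1%). The lists differ in how many of their regions lie at 10 to 75%. At these levels the median change was -5.05 points for NRF2 targets (11 regions), -5.54 for the methylation machinery (13) and -5.85 for imprinted genes (49). It was -3.22 points for glutamate and GABA receptors (110) and -2.67 for Hox genes (12), against -3.59 over all regions at 10 to 75%.

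Among markers of the cell types of cortex, 16 of 126 regions for neurons, 11 of 42 for astrocytes, 16 of 47 for oligodendrocytes, 10 of 37 for microglia and 10 of 27 for endothelium were lower DMRs. Differences between the lists were not tested, and the lists differ in their shares of MspI-only regions and of regions at 10 to 75%. Higher DMRs numbered 3 for neurons, 1 for endothelium and 0 for the others. Whether a shift in cell types had a part in the loss was not tested. The regions of smallest p in a list overlapped between groups in each list. At the start of Osgin1, an NRF2 target, controls ranged from 48.8% over 55.8 to 61.5 and the smoked group from 27.03% over 40.3 to 56.3 (-13.2 points, SE 3.57, limma adjusted p = 0.267). In an intron of Gabbr2, a GABA-B receptor subunit gene, they were 64.6% ± 11.8 and 43.4% ± 10.8 (n = 8 each, limma adjusted p = 0.266). An intron of Tet2, which encodes an enzyme that oxidises methylcytosine, stood at 69.8% ± 12.2 and 48.1% ± 14.5 (n = 8 each, limma adjusted p = 0.288). The neuron marker Bcl11b was the exception in direction: its TaqI-only intron region stood at 21.8% ± 3.12 in controls and 26.2% ± 1.61 in the smoked group (limma adjusted p = 0.288).

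Imprinting control regions carry DNAme on the allele of 1 parent and so lie at intermediate levels. The regions described here were picked after their values were seen. They were regions of at least 10 cytosines at 30 to 65% in control WT brain among the listed imprinted genes: 15 regions of 8 genes. They were not matched to known imprinting control regions. Plagl1, a paternally expressed regulator of growth with 57 cytosines at its start (chr10:13090765-13091189), had controls from 41.8% over 47.2 to 51.9, while smoked columns 2, 4, 5 and 6 stood at 20.7, 27.6, 29.9 and 33.7 and the other 4 smoked libraries between 39.8 and 47.1. In an intron of Grb10, an imprinted adaptor gene of growth factor signalling (chr11:12026185-12026469, 45 MspI-only cytosines), controls ranged from 33.8% to 49.1%, smoked columns 2, 4, 5 and 6 stood at 13.3, 12.3, 14.5 and 32.1, and the other 4 ranged from 35.3% to 45.6%. At the start of Peg13, an imprinted non-coding RNA gene (chr15:72809700-72809881), controls ranged from 33.2% to 45.8% and the same 4 smoked columns stood at 10.5, 21.4, 19.5 and 22.96. The low values were not limited to sons of Nrf2-/- sires: smoked WT column 8 stood at 11.3% in this Grb10 region, 27.8% at the MspI-only cytosines of Plagl1 and 7.33% at Peg13. The second region of Zrsr1 (chr11:22972499-22972993) averaged 44.5% in both groups. Inpp5f stood at 31.5% in controls and 33.5% in the smoked group, with smoked columns 2 and 4 at 11.3% and 8.28%, below all 8 controls (lowest 13.2%), and smoked column 5 at 49.3%.

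One region of Gnas, an imprinted gene of a G protein subunit, held both kinds of cytosine (chr2:174298821-174299143). Its 13 MspI-only cytosines had 30.1% ± 6.55 in controls and 21.1% ± 6.37 in the smoked group, and smoked columns 2, 4, 5 and 6 stood at 12.3, 13.9, 18.9 and 18.7. Its 12 TaqI-only cytosines had 47.3% ± 7.05 and 44.4% ± 7.12, and the same columns stood at 34.0, 38.4, 48.3 and 43.3. Over all 15 regions, 287 MspI-only cytosines averaged 41.6% ± 3.39 in controls and 31.5% ± 9.88 in the smoked group. The 20 TaqI-only cytosines, which lay in 3 of these regions, averaged 53.9% ± 5.51 and 52.6% ± 3.63, and the 37 with both sites, in 8 regions, 33.3% ± 2.26 and 32.3% ± 4.21 (SD, n = 8 each).

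F0 sperm of control (10) and CS-exposed (9) Nrf2-/- males had values at 61831 of the brain regions. At the 6548 lower brain DMRs among them, the median control sperm level was 69.3%, against 23.6% over all regions and 81.8% at regions of 10 to 75% that were no DMR, and the median sperm change with CS was -0.114 points, against -0.0876 over all. The median brain change at these DMRs was -7.95 points. Across these regions, which share libraries, the brain and sperm changes had r = -0.0140, given as a description. Column 3 of the smoked sperm libraries stood apart and was kept. Its mean over all its positions was 27.4%, against 33.3% to 39.5% in the other smoked sperm libraries. Several named falls were unmethylated in sperm: control sperm stood at 1.64% in the Zfp169 region, 1.59% at Npbwr1 and 1.62% near Wfs1. The imprinted Plagl1 region stood at 1.09% there. Other named falls were methylated in sperm, among them Nrcam (95.6%) and D130079A08Rik (95.8%).

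The change with paternal CS differed between genotypes of the sire. In sons of WT sires the mean deviation was 0.516 points higher with CS, and the difference between genotypes was -1.46 points (permutation test, 100000 resamples within genotype, p = 0.00201, adjusted p = 0.00645 over 13 measures). It was -5.77 points at 10 to 75% (adjusted p = 0.00645). It was also present at TaqI-only cytosines, with -0.757 points in sons of Nrf2-/- sires and 1.98 in sons of WT sires (difference -2.74, adjusted p = 0.00645), and at MspI-only cytosines (-6.79 against 1.75, difference -8.54, adjusted p = 0.0368). Level classes were set by control WT brain, which is an arm of the change in WT sires, so these differences by level class carry a selection effect of unknown size, which the mean deviation over all cytosines does not. At 10 to 75%, control Nrf2-/- brains themselves stood 1.92 points above control WT, beside a WT smoke change of 2.06. Without smoked columns 2, 4, 5 and 6, the change in sons of Nrf2-/- sires was -0.326 points in mean deviation. At MspI-only cytosines of 10 to 75% it was -1.36 points. Smoked WT column 8, which was kept, stood at -1.13 points in mean deviation and -14.2 at these cytosines. The difference between genotypes was not tested without these libraries. The plain mean differed by -2.11 points and did not pass (p = 0.0673), nor did the MspI-only minus TaqI-only difference (-5.80 points, p = 0.134). By the size rule, WT sires gave 1212 lower DMRs (1.5%) and 5531 higher (6.84%), in all 8.33% of regions. With limma, 1 region was called for WT sires (0.00124%). At unadjusted p under 0.05, 2733 were higher (3.38%) and 621 lower. Limma called 0 of 80920 regions (0.0%) for the difference between genotypes, with 7608 at unadjusted p under 0.05. Libraries of WT sires carry facility numbers above 16, so genotype of the sire and facility number cannot be told apart.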

How the data were processed

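DNAme in F1 prefrontal cortex was taken from the deposited tables, 1 per group. As the paper's methods and the labels describe, the authors pooled MspI and TaqI digests, sequenced them and called methylation with Bismark (version not given in the sources used here) against mm10. The deposited values are the percent of methylated reads per cytosine and library. Read numbers are not in them, so the depth behind a percent is not known here. In the paper's methods a CpG was scored by its coverage, with a minimum near 8 reads in at least 4 animals. Whether the tables were filtered in this way is not stated, and scoreable here means only that 4 libraries of each brain group had a value. No column of values was left unused in the tables (0), and columns were assigned to a group, not to an animal.

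Scoreable cytosines, deviations from control WT brain, level classes, annotation (GRCm38), CpG density in 200 bp, distance to the nearest cut site (50 bases) and regions were computed with Python 3.11.15 (numpy 2.4.6, pandas 2.3.3; figures with matplotlib 3.10.9). Library values were compared by exact permutation tests with Benjamini-Hochberg adjustment. Regions were tested with limma 3.58.1 in R 4.3.3 on the percent scale over all 32 F1 brain libraries, and a region is called at an adjusted p under 0.05. The tests were first run on simulated data. P-values set a difference between groups against the spread between libraries of these animals. Litters or sires shared by animals are not known from the columns. The RRBS percents carry no counting interval.

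Named regions were the 12 largest falls and 8 largest rises among regions called that were also DMRs with a value in at least 6 libraries a group, filled by unadjusted limma p where fewer passed, plus the region of smallest p of each gene list. Regions take the name of the gene they lie in, else of the nearest transcription start. The groups, lists and rules were chosen with earlier results of these data known. Imprinted regions and splits by enzyme, facility number and left-out low libraries were added after the values were seen. Sequences are from the GRCm38 reference.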

Additional observations from a re-analysis of the deposited data

Results flagged for a closer look

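In 100 groups of up to 8 values examined with Dixon's test, 6 held a library far from the others, and chance gives about 1 in 20. At cytosines of 75 to 90%, smoked column 2 had a deviation of -5.28 points. In the Zfp423 region smoked column 4 was at 36.8%, and in the 1700006H21Rik region control column 3 was at 85.9%. Near Asb4 and C530044C16Rik control column 5 stood far above the other controls, at 77.1% and 80.5%. Near Gm20618 smoked column 7 stood far below the other smoked libraries, at 13.2%.

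The change with paternal CS differed between sires of Nrf2-/- and WT genotype in 9 of 13 measures after adjustment (permutation within genotype). As sons of Nrf2-/- sires minus sons of WT sires, the difference was -1.46 points in mean deviation and -0.989 points at cytosines with a value in all 32 libraries. By level it was -4.68 points at 10 to 25%, -7.15 at 25 to 50%, -5.31 at 50 to 75% and -2.19 at 75 to 90%. At 10 to 75% it was -5.77 points for all cytosines, -8.54 for MspI-only and -2.74 for TaqI-only cytosines. The differences by level class carry a selection effect, since control WT brain, an arm of this contrast, set the classes. Genotype of the sire and the run of facility numbers cannot be told apart.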

How the results depend on the processing

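No paired analysis was possible because the columns carry facility numbers that match no replicate number of the labels. The mean change of -1.68 points was 0 as a median deviation, -0.275 at TaqI-only cytosines (exact p = 0.473), -1.63 without facility numbers 13 to 16 (exact p = 0.0801), -1.04 without the libraries with a value at under 90% of MspI-only cytosines (exact p = 0.261) and 0.0700 without smoked columns 2, 4, 5 and 6, where its sign turned. With 1 library left out it ranged from -1.95 to -1.30 points and passed the exact test in 5 of 16 cases, those without control column 6 or smoked column 1, 3, 7 or 8. Over all positions with a value in a library the fall was larger. Library means there ran from 36.8% to 39.96% in controls and from 27.5% to 39.1% in the smoked group. The change under 10% ranged from -0.219 to 0.0232 and at 90% and above from -0.578 to 0.0173 when 1 library was left out, with neither past the test. The difference in spread of the plain mean ranged from 0.924 to 1.29 points and passed in 13 of 16.

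With labels exchanged within runs of facility numbers, 6 level classes passed in place of 3, 4 density and 6 annotation classes passed, and 13 of 16 classes differed from the rest at unadjusted p, against 7 at the unadjusted exact p and 0 after its adjustment. DMRs numbered 4247 at 10 points, 6082 with at least 5 cytosines, 4229 at cytosines with a value in all 32 libraries, 930 at TaqI-only cytosines and 8417 without smoked columns 2, 4, 5 and 6, against 12947, and 11077 to 14527 with 1 library left out. Limma called 0 regions with array weights (6637 at unadjusted p under 0.05), on the logit scale (7349), with strands averaged (7566), at cytosines with a value in all 32 libraries (3812) and without facility numbers 13 to 16 (6297). It called 3 with 300 bp joining, 2 with the run as a term, 3 at TaqI-only cytosines and 0 to 4 with 1 library left out. The plain mean differed by -2.11 points between genotypes of sire (p = 0.0673). The cause of these shifts was not tested. The splits by run, by enzyme site and by left-out low libraries were chosen after seeing the data. Without read numbers, the part of counting error in any percent is unknown.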
